A study of Mus musculus with 12 samples.

Results

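Ribosome pull-downs were made from 2 preparations of mouse cortex, the whole homogenate and a synaptic band, and the effect of the pull-down on each RNA was compared between them. The mice were of the SNAP25 BacTRAP line and 21 days old. All 12 libraries entered the comparison, and 13137 of 29879 genes had enough counts to be tested. Every group carried the same transgene. WCH was the homogenate, TRAP the immunoprecipitate of eGFP-tagged ribosomes from it, SNF the synaptic band, taken from a sucrose/percoll gradient, without immunoprecipitation, and SynapTRAP the immunoprecipitate from that band. Each group had 3 libraries, named here by the replicate number of their titles. The quantity described is a difference between effects on the log2 scale. The band effect is SynapTRAP minus SNF, the homogenate effect is TRAP minus WCH, and the difference is the band effect minus the homogenate effect. A gene with a positive difference was thus retained better, relative to its own input, by the pull-down from the band than by the pull-down from the homogenate. Nothing in the labels says that the replicates came from separate animals, so p-values measure only the spread between these libraries. No group without the transgene is among the libraries, so RNA bound by the beads regardless of the tag was not measured.

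BacTRAP mice make a fluorescently tagged ribosomal protein in chosen cells, and antibodies to the tag recover their ribosomes with the mRNA on them. Snap25 encodes a SNARE protein of neurons that drives fusion of synaptic vesicles. RNA of glia and other cells without the tag is lost in such a pull-down, and mRNA of the tagged cells that is bound by ribosomes is kept. A synaptic band holds pinched-off nerve endings with attached postsynaptic material, and also pieces of astrocyte processes, myelin and free mitochondria. In these bulk libraries, fewer fragments of a cell type and less RNA per fragment cannot be told apart.

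Libraries held 4368881 to 14335089 gene counts. Mitochondrially encoded RNA took 33.6% to 50.9% of them in WCH, 0.93% to 5.43% in TRAP, 82.2% to 87.3% in SNF and 20.4% to 63.3% in SynapTRAP, where library 3 held most. It was left out of the library sizes, which were then 1819853 to 2111322 counts in SNF and 3585898 to 7115176 in the other groups. At these depths, 3 counts corresponded to 1.54 to 1.82 CPM (counts scaled to a common library size) in SNF and to 0.43 to 0.936 elsewhere. GFP, the tag, was higher in the immunoprecipitates of both preparations. It stood at 15.4, 9.88 and 12.8 CPM in WCH libraries 1 to 3, at 45.6, 46.2 and 117 in TRAP, at 6.08, 7.87 and 6.68 in SNF and at 20.2, 21.3 and 15.9 in SynapTRAP. Its log2 effect was 2.45 ± 0.33 (SE) in the homogenate and 1.48 ± 0.39 in the band (edgeR adjusted p = 7.09e-05 and 0.0328), and the difference of -0.97 ± 0.51 did not pass the test (adjusted p = 0.33). Snap25 itself did not pass in either pull-down, with log2 effects of 0.29 ± 0.28 and -0.33 ± 0.28. Of the other controls, Camk2a was higher in both, by 1.304 in the homogenate and 1.427 in the band (edgeR adjusted p = 0.01912 and 0.03802). Its difference was 0.1235 ± 0.5359. The noncoding RNA Malat1 passed in the homogenate only (-3.862 against -1.22 in the band, adjusted p = 0.03059 and 0.539). Its difference of 2.642 ± 1.349 did not pass (adjusted p = 0.3565). Rpl10a, at 5 to 19 counts, passed in neither pull-down.

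In the fit of all 12 libraries without pairs, fewer genes were called for the pull-down in the band than in the homogenate, and most genes with a called difference had a large effect in the homogenate and a small one in the band. In the homogenate, 2977 genes (22.7%) passed the edgeR test at an adjusted p under 0.05, 1497 higher (11.4%) and 1480 lower (11.3%) in TRAP. In the band, 562 genes (4.28%) passed, 315 higher (2.4%) and 247 lower (1.88%) in SynapTRAP. A fit of SNF and SynapTRAP alone, those 2 groups paired by library number, called 1086 genes higher and 1124 lower in the band. The fit of all 12 libraries with a block for the number within each preparation treats both alike. It called 644 genes higher and 638 lower in the band, and 1879 higher and 2094 lower in the homogenate. For the difference it called 495 higher and 438 lower. Without pairs, the difference itself passed for 126 genes (0.959%), 75 higher (0.571%) and 51 lower (0.388%), with 2306 genes at an unadjusted p under 0.05. Median standard errors were 0.302 for the homogenate effect and 0.323 for the band effect. The groups share an estimate of the spread in this fit, so these errors do not compare the noise of the preparations. Between 2 libraries of a group, the SD of log2 ratios across genes was 0.327 to 0.39 in WCH and 0.614 to 0.651 in TRAP. It was 0.495 to 0.58 in SNF and 0.51 to 0.736 in SynapTRAP. The SD of the effects over all tested genes was 0.82 in the homogenate and 0.634 in the band.

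In the fit without pairs, the genes called for the difference fell into 2 blocks. Absence of a call in the band depends on that fit, since same-numbered SNF and SynapTRAP libraries deviated together. Of the 75 genes called higher, 71 were called lower in TRAP than in WCH, 69 of them with no call in the band and 2 called lower there too. The other 4 were called higher in SynapTRAP with no call in the homogenate. Of the 51 genes called lower, 50 were called higher in TRAP with no call in the band, and 1, Gsg1l, was called lower in SynapTRAP only. The band effect was smaller in size than the homogenate effect in 119 of the 126. Among the genes called higher the median log2 effect was -1.64 in the homogenate and 0.27 in the band, and among those called lower it was 1.3 and -0.28. Without pairs, no gene was called in both pull-downs in opposite directions. The block within each preparation did call such genes, counted in the closing section. By DESeq2 there were 5 such genes, and 90 genes had opposite effects at an unadjusted p under 0.05 in both. Calls in both pull-downs in the same direction numbered 335, which is 11.3% of the homogenate calls and 59.6% of the band calls. Across the 13137 genes, which are not independent replicates, the 2 effects share no library and had a Pearson correlation of 0.357 and a Spearman correlation of 0.345. These were 0.471 and 0.412 over the 9109 genes with a mean of at least 10 CPM.

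**Figure D1:**
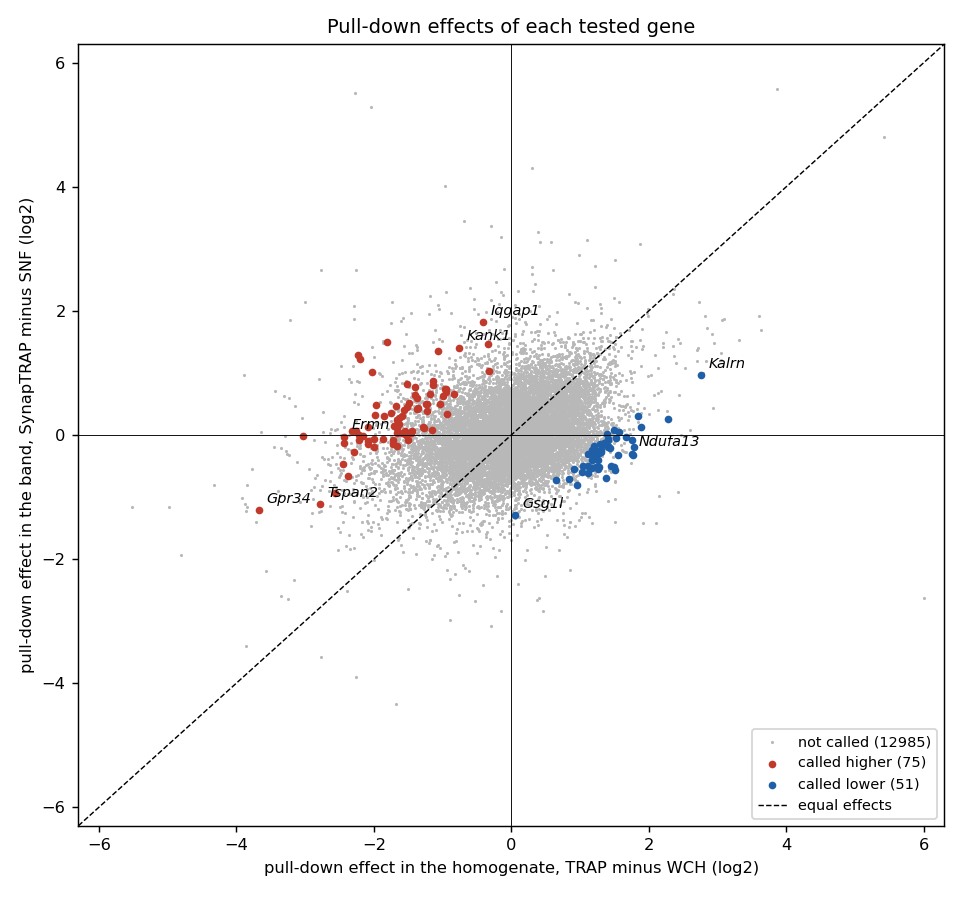
Log2 effect of the pull-down in the homogenate (x axis, TRAP minus WCH) and in the band (y axis, SynapTRAP minus SNF) for each tested gene outside the mitochondrial genome. Red points are the 75 genes called higher and blue points the 51 called lower for the difference. Most red points lie left of 0 and most blue points right of 0 on the x axis, close to 0 on the y axis, and 1 uncalled gene lies beyond the axes. The dashed line marks equal effects.

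Which libraries entered decided how many genes passed. Without WCH library 2 or without SNF library 1, 0 genes were called for the difference by edgeR (smallest adjusted p 0.0765 and 0.0525), with 1739 and 1963 genes at an unadjusted p under 0.05. Counts of genes called higher and lower were 6 and 5 without WCH 1, 6 and 15 without WCH 3, 100 and 177 without TRAP 1, 6 and 19 without TRAP 2, and 44 and 29 without TRAP 3. They were 7 and 11 without SNF 2, 44 and 77 without SNF 3, 14 and 10 without SynapTRAP 1, 163 and 271 without SynapTRAP 2, and 40 and 65 without SynapTRAP 3. All 126 genes kept the sign of the difference in each of these 12 fits, and none kept its call in all of them. Ago3, Dcx, Dusp11, Acap2, Ndufa13, Nop10, Romo1 and Uqcr11, named for this after their values were seen, kept it in every fit other than those without WCH 2 or SNF 1. Scaling moved the balance of directions: 59.5% of the called genes were higher here, 33.3% with RLE factors and 73.7% with totals outside the mitochondrial genome. It was 30.6% with DESeq2, which differs in both scaling and test. The median difference of all genes was 0.07 here, -0.06 with RLE factors, 0.18 with those totals and -0.06 with DESeq2. With totals that include mitochondrial RNA it was 1.46 and 6324 genes were called higher against 1 lower, so values below are on a scale that takes most nuclear genes as unchanged.

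Nuclear-encoded subunits of the respiratory chain made the largest group among the genes called lower. These proteins build complexes I to IV and the ATP synthase of the inner mitochondrial membrane. Of 76 tested genes, 18 were called lower and 0 higher, against 0.388% called lower over all genes. The difference was negative in 74 of the 76, with a median of -1.0 on the log2 scale, against 0.07 over all genes. Behind it lay median effects of 0.97 in the homogenate and -0.09 in the band. In TRAP 50 of the 76 were called higher, against 11.4% of all genes. In SynapTRAP 1 was called higher and 0 lower, against 2.4% and 1.88% of all genes. At an unadjusted p under 0.05, 48 of the 76 were lower for the difference and 0 higher, beside 2306 of all 13137 genes in either direction. DESeq2 called 37 lower and 0 higher, beside 399 lower and 176 higher over all genes. Such counts for the other lists stand beside the same totals. The list's mean level was 5.81 to 6.13 log2 CPM in WCH and 6.66 to 6.9 in TRAP, which did not overlap. It was 6.05 to 6.19 in SNF and 5.99 to 6.1 in SynapTRAP, which did overlap. By number, each SynapTRAP library was slightly below its SNF library, at 6.06, 6.1 and 5.99 against 6.19, 6.13 and 6.05.

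Ndufa13, an accessory subunit of complex I, stood at 105, 77.3 and 98.1 CPM in WCH libraries 1 to 3, at 214, 346 and 381 in TRAP, at 203, 222 and 132 in SNF and at 141, 179 and 131 in SynapTRAP. Every TRAP library was above every WCH library, by 3.36-fold in the fit, while SNF and SynapTRAP overlapped. Overlap of groups, here and for the genes below, describes the libraries that gave the calls and is no added support. The difference was -2.05 ± 0.36 (SE, 3 libraries a group; edgeR adjusted p = 0.0115).

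Uqcr11, a small subunit of complex III, gave 73.1, 51.6 and 68.6 CPM in WCH, 150, 240 and 277 in TRAP, 129, 138 and 107 in SNF and 119, 107 and 101 in SynapTRAP, with a difference of -1.98 ± 0.34 (adjusted p = 0.0115). Its neighbour in the complex, Uqcr10, gave 136, 86.2 and 131 CPM in WCH, 270, 406 and 512 in TRAP, 136, 119 and 124 in SNF and 109, 129 and 120 in SynapTRAP, with a difference of -1.84 ± 0.34 (adjusted p = 0.0159). In both genes the homogenate groups did not overlap and the band groups did.

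Cox8a, a subunit of cytochrome c oxidase, showed another pattern of levels. It was at 144, 190 and 201 CPM in WCH and at 233, 448 and 601 in TRAP, but already at 422, 497 and 405 in SNF, and at 255, 281 and 366 in SynapTRAP. Here the SynapTRAP libraries were all below the SNF libraries, although the band effect of -0.56 ± 0.27 was not called (adjusted p = 0.262), and the difference was -1.82 ± 0.39 (adjusted p = 0.0313). Cox7a2, of the same complex, also lay lower in every SynapTRAP library than in every SNF library (181, 146 and 150 CPM in SNF against 105, 116 and 112 in SynapTRAP), again without a call for the band effect (adjusted p = 0.184), and had a difference of -1.75 ± 0.31 (adjusted p = 0.0115). Ndufa2, of complex I, had a difference of -1.87 ± 0.34 (adjusted p = 0.0153), from 38.4, 33.4 and 50.3 CPM in WCH and 86.0, 129 and 141 in TRAP against 59.6, 54.0 and 51.9 in SNF and 35.9, 45.7 and 50.3 in SynapTRAP.

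Calls came from 4 of the 5 complexes: 7 of 37 complex I genes, 3 of 9 of complex III, 5 of 11 of complex IV and 3 of 14 of the ATP synthase, with 0 of 4 of complex II. The median difference was -1.50 for complex IV, -1.04 for complex I, -0.94 for complex III, -0.72 for the ATP synthase and -0.47 for complex II. Beside the genes above, the called members were Ndufa6, Ndufa7, Ndufb7, Ndufb9, Ndufv3, Uqcrq, Cox6b1, Cox7b, Cox6a1, Atp5k, Atp5d and Atp5e, with differences of -1.71 to -1.41. Coding length ran along the difference within the list. The 38 genes of shorter coding sequence (156 to 423 bases) held 14 of the 18 calls and a median difference of -1.29, the 38 of longer coding sequence (429 to 2181 bases) held 4 and a median of -0.74, and across the 76 genes the Spearman correlation was 0.503. Between the shorter and the longer genes the median band effect went from -0.28 to 0.14 and the median homogenate effect from 1.05 to 0.90. Genes of this group often have processed pseudogenes of near-identical sequence, and how the authors' counting split such reads was not checked. Of the called genes named in the text, Ttc9b, Ndufa2, Atp5d, Romo1, Dctn3, Litaf and Gpr34 overlap another tested gene on the opposite strand, and Ndufa13 and Utp14b overlap one on the same strand. With the strand setting unknown, the values of all of these are uncertain.

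Mitochondrial ribosomal protein genes leaned the same way without a call by edgeR. The difference was negative in 64 of 74, with a median of -0.58. At an unadjusted p under 0.05, 21 were lower and 1 higher, beside 2306 of all 13137 genes in either direction. DESeq2 called 11 lower, beside 399 over all genes. The 9 tested mRNAs encoded in mitochondria behaved otherwise. Of these, 8 were called lower in TRAP and 4 lower in SynapTRAP, with median log2 effects of -3.63 and -3.26, and 0 were called for the difference. Their median difference of 0.49 ranged from -0.43 to 1.01 when 1 library was left out. Mt-Co1, the catalytic subunit of cytochrome c oxidase, had an effect of -3.18 ± 0.62 in the homogenate and -2.67 ± 0.60 in the band.

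Romo1, a small protein of the mitochondrial inner membrane outside the respiratory list, had the largest negative difference of the genes named here, -2.10 ± 0.36 (adjusted p = 0.0115). It stood at 35.5, 22.2 and 31.9 CPM in WCH, 69.4, 104 and 132 in TRAP, 51.7, 42.7 and 44.2 in SNF and 33.2, 37.2 and 40.3 in SynapTRAP, so that no 2 groups of a pull-down overlapped, with TRAP above its input and SynapTRAP below it. Nop10, a component of small nucleolar ribonucleoproteins, showed the same order, with 92.0, 58.7 and 102 CPM in WCH, 170, 260 and 292 in TRAP, 111, 89.4 and 92.5 in SNF and 59.1, 74.5 and 63.4 in SynapTRAP (difference -2.08 ± 0.35, adjusted p = 0.0115). In Fbll1, a fibrillarin-like gene expressed in brain, TRAP was above WCH (35.7, 59.6 and 59.6 against 17.3, 17 and 20.4 CPM) and SynapTRAP below SNF (9.83, 8.97 and 10.6 against 17.6, 10.7 and 13.9), with a difference of -2.02 ± 0.41 (adjusted p = 0.0253). The band effect of these 3 genes was not called (adjusted p = 0.526, 0.2 and 0.359).

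Ttc9b, a tetratricopeptide repeat gene, rose 4.87-fold in TRAP and had overlapping levels in the band: 45.0, 43.5 and 53.0 CPM in WCH and 128, 299 and 264 in TRAP, against 57.8, 33.7 and 37.5 in SNF and 48.3, 45.2 and 61.5 in SynapTRAP (difference -2.02 ± 0.40, adjusted p = 0.0229). Yipf3, a Golgi membrane protein, differed by -2.08 ± 0.39 (adjusted p = 0.0159), Mettl22, a methyltransferase-like gene, by -1.95 ± 0.45 (adjusted p = 0.0382) and Dctn3, a subunit of the dynactin complex that links dynein to its cargo, by -1.50 ± 0.32 (adjusted p = 0.0326). Dctn3 was the 1 call among 32 kinesin, dynein and dynactin genes, whose median difference was 0.00.

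Kalrn, a signalling protein of dendritic spines, was 1 of 7 genes called lower for the difference whose band effect was positive, and had the largest band effect of them. It went from 442, 426 and 415 CPM in WCH to 1553, 2129 and 5025 in TRAP, and from 365, 385 and 403 in SNF to 804, 696 and 750 in SynapTRAP. Neither pair of groups overlapped. The homogenate effect was 2.76 ± 0.32, the band effect of 0.96 ± 0.31 was not called (adjusted p = 0.0744), and the difference was -1.80 ± 0.43 (adjusted p = 0.0469). Kalrn was the 1 call among 44 postsynaptic density genes, whose median effects were 0.60 in the homogenate and 0.88 in the band, with a median difference of 0.25 that ranged from -0.06 to 0.29 when 1 library was left out. Kalrn kept the call without 2 of the 12 libraries only.

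Gsg1l, an auxiliary subunit of AMPA receptors, was the 1 gene called lower for a loss in the band. Levels were 65.7, 66.4 and 74.6 CPM in WCH and 73.3, 73.6 and 68.1 in TRAP, which overlapped, but 176, 212 and 169 in SNF against 64.6, 82.5 and 79.9 in SynapTRAP. The band effect was -1.29 ± 0.21 (adjusted p = 0.00415), the homogenate effect 0.06 ± 0.20, and the difference -1.35 ± 0.29 (adjusted p = 0.0313). Gsg1l lies outside the rule for named genes and was chosen after its values were seen. The AMPA and NMDA receptor subunit genes held 0 calls of 23 for the difference by edgeR, with 2 lower at an unadjusted p under 0.05 and 2 by DESeq2.

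**Figure D2:**
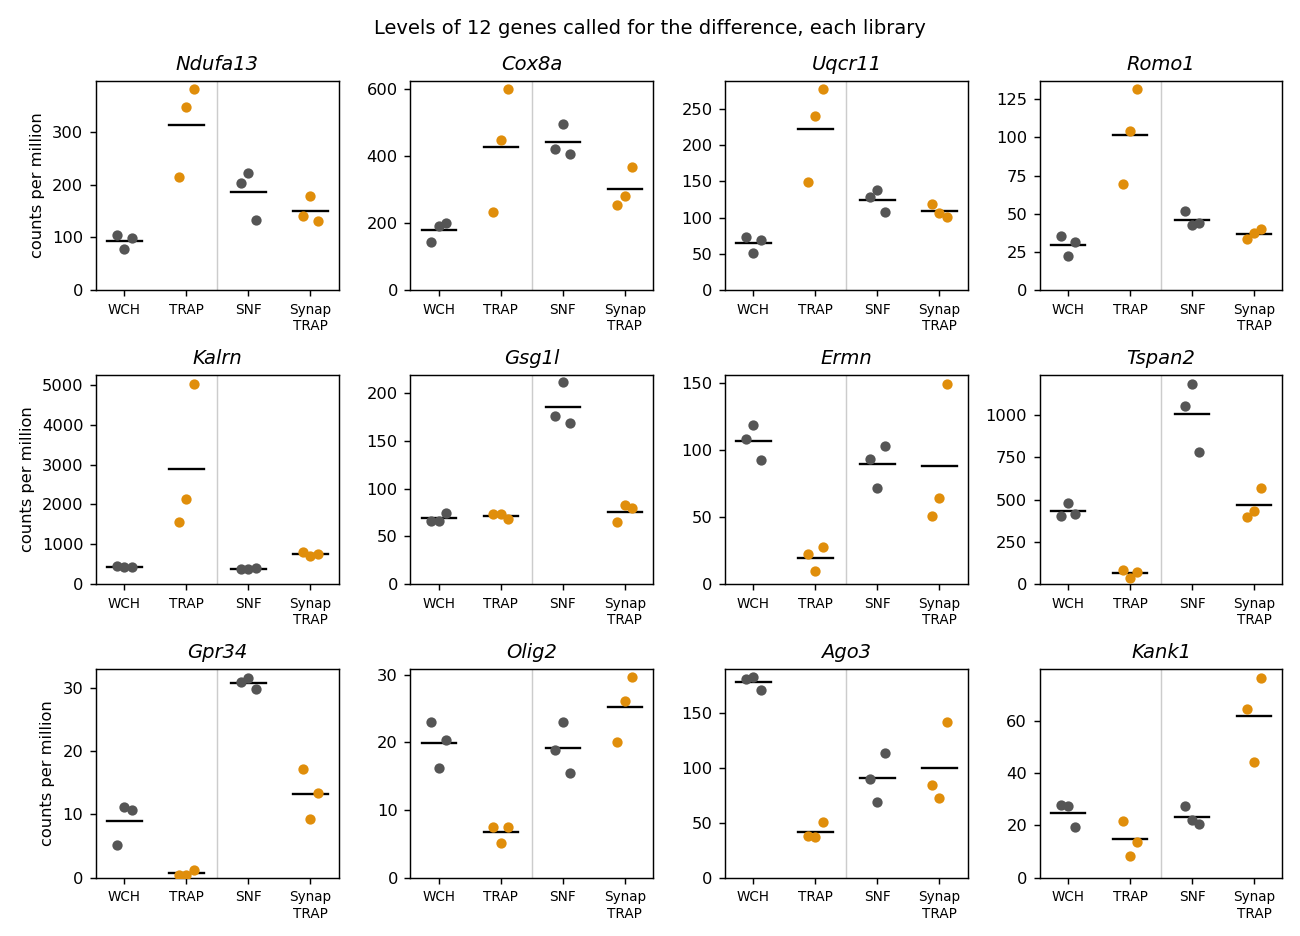
CPM (y axes, from 0) in each library for 12 genes called for the difference, chosen to show the patterns of the text. Points are libraries 1 to 3 of each group, orange for immunoprecipitates, and bars are group means. In Ndufa13, Uqcr11 and Romo1 the TRAP libraries stand above WCH while SynapTRAP does not stand above SNF. In Ermn, Olig2 and Ago3 TRAP is below WCH while the SynapTRAP range overlaps that of SNF. By replicate number, Olig2 is higher in each SynapTRAP library than in its SNF library.

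Glial markers lay at the other end, with positive median differences. Of 22 oligodendrocyte markers, 14 were called lower in TRAP and 3 lower in SynapTRAP, against 11.3% and 1.88% of all genes, and for the difference 2 were called higher and 0 lower, against 0.571% called higher over all genes. The median difference was 1.06, positive in 20 of 22, from median effects of -1.59 in the homogenate and -0.41 in the band. At an unadjusted p under 0.05, 14 of them were higher and 0 lower, beside 2306 of all 13137 genes in either direction. Of 21 astrocyte markers, 9 were called lower in TRAP and 0 in SynapTRAP, and 0 passed for the difference by edgeR or by DESeq2. Their median difference was 0.99, positive in 19 of 21, with 11 higher and 0 lower at an unadjusted p under 0.05. Of 22 microglia markers, 9 were called lower in TRAP, 2 lower in SynapTRAP and 1 higher for the difference, with a median difference of 0.75, positive in 20. Oligodendrocyte precursor markers held 1 call of 11 and a median of 0.24, which ranged from -0.26 to 0.56 when 1 library was left out.

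The mean levels of these markers were higher in the band than in the homogenate before any pull-down. Astrocyte markers had mean levels of 6.39 to 6.65 log2 CPM in WCH, 4.9 to 6 in TRAP, 8.31 to 8.74 in SNF and 8.1 to 8.8 in SynapTRAP. Oligodendrocyte markers were at 6.48 to 6.7, 4.41 to 5.57, 7.29 to 7.87 and 7.38 to 7.44 in the same order, and microglia markers at 3.42 to 3.63, 1.6 to 2.65, 5.17 to 6.09 and 4.57 to 5.56. None of the astrocyte, oligodendrocyte and microglia markers was at 0 in any library. For all 3 lists TRAP did not overlap WCH, and the range of SynapTRAP overlapped that of SNF. Libraries of the same number deviated together in the band, so overlap of ranges does not show an absent band effect. Microglia markers fell in each numbered pair, from 6, 6.09 and 5.17 in SNF to 5.56, 5.33 and 4.57 in SynapTRAP. Their median band effect was -0.54, negative in 21 of 22, against -1.16 in the homogenate. Astrocyte and oligodendrocyte markers moved both ways between the pairs. Neuron markers were at 8.7 to 8.85, 8.79 to 9.42, 8.69 to 8.94 and 8.6 to 9. Of these 20, 8 were called higher in TRAP and 1 in SynapTRAP, against 11.4% and 2.4% of all genes. Their median difference was -0.49. The lists of neuron types did not share this sign. Excitatory neuron markers had a median of 0.12, positive in 10 of 16, and inhibitory neuron markers 0.24, positive in 12 of 20. When 1 library was left out, these 2 medians ranged from -0.133 to 0.128 and from -0.0533 to 0.319. The medians of the oligodendrocyte, astrocyte, microglia and respiratory chain lists kept their sign in each fit that left out 1 library. They were 0.72 to 1.29, 0.528 to 1.06, 0.346 to 1.03 and -1.21 to -0.993 in that order.

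**Figure D3:**
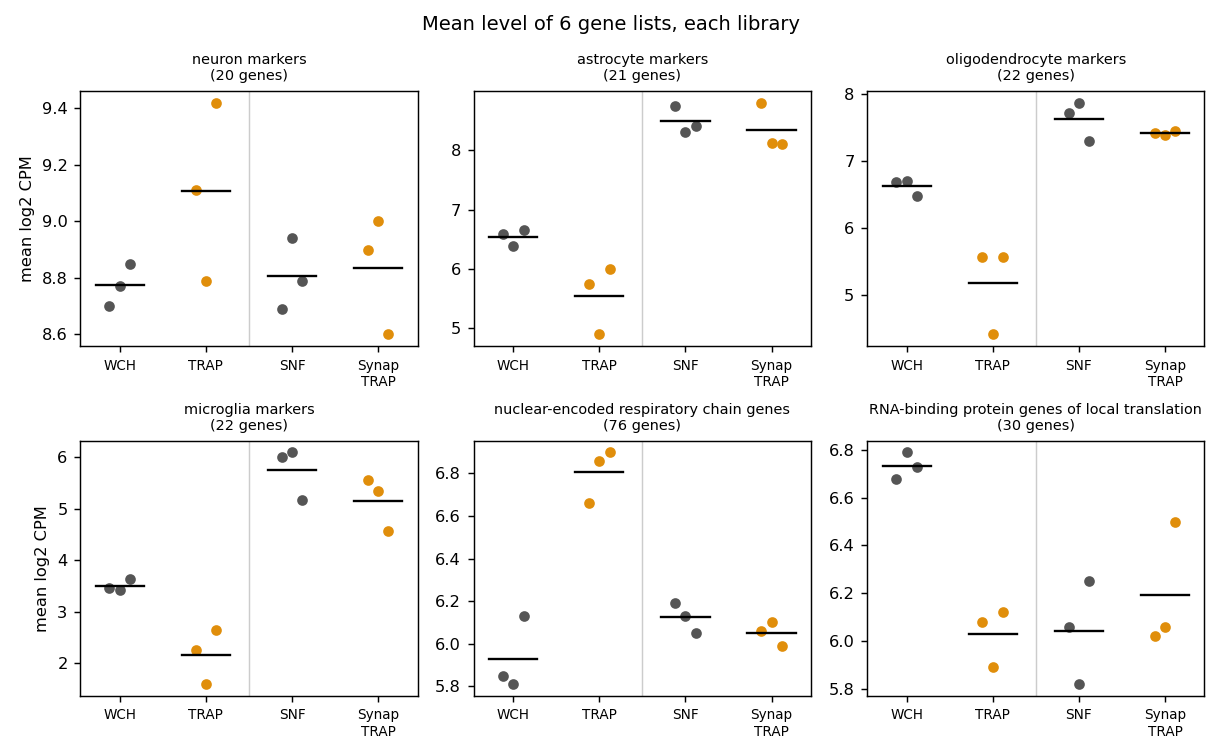
Mean log2 CPM (y axes, which do not start at 0) over the tested genes of 6 lists in each library. Points are libraries 1 to 3 of each group, orange for immunoprecipitates, and bars are group means. For the 3 glial lists TRAP lies below WCH while SynapTRAP overlaps SNF, and for respiratory chain genes TRAP lies above WCH while SynapTRAP overlaps SNF. Overlap is of group ranges, without regard to replicate number.

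Ermn, a cytoskeletal protein of myelinating oligodendrocytes, stood at 108, 119 and 92.6 CPM in WCH, 22.1, 9.39 and 27.4 in TRAP, 93.0, 71.4 and 103 in SNF and 51.0, 64.3 and 149 in SynapTRAP. TRAP lay below WCH in every library, and SynapTRAP spread on both sides of SNF with library 3 highest. The difference was 2.40 ± 0.53 (adjusted p = 0.0423), from effects of -2.43 ± 0.39 and -0.03 ± 0.37.

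Tspan2, a tetraspanin of oligodendrocytes, was reduced by both pull-downs but less in the band. It had 402, 482 and 418 CPM in WCH, 81.0, 36.8 and 71.4 in TRAP, 1056, 1183 and 780 in SNF and 395, 431 and 569 in SynapTRAP. The effects were -2.78 ± 0.28 in the homogenate and -1.11 ± 0.27 in the band (adjusted p = 3.7e-06 and 0.0211), and the difference was 1.67 ± 0.38 (adjusted p = 0.0356). Elovl7, a fatty acid elongase, was the other gene called lower in both pull-downs and higher for the difference (1.63 ± 0.34, adjusted p = 0.029), with 32.4, 36.9 and 38.1 CPM in WCH, 5.32, 6.32 and 6.54 in TRAP, 51.7, 73.7 and 53.4 in SNF and 31.5, 31.4 and 30.9 in SynapTRAP. Elovl7 was chosen after its values were seen.

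Mbp, the myelin basic protein, did not follow Ermn and Tspan2. Its CPM were 956, 1093 and 977 in WCH, 2692, 323 and 12600 in TRAP, 4069, 3085 and 4331 in SNF and 13100, 9904 and 35320 in SynapTRAP. Its log2 effects were positive in both pull-downs, at 2.368 ± 1.05 (SE) in the homogenate and 2.345 ± 1.05 in the band. Neither was called (edgeR adjusted p = 0.145 and 0.263). Every SynapTRAP library was above every SNF library, while TRAP and WCH overlapped. Both immunoprecipitates varied severalfold between libraries, highest in library 3 of each, and the difference of -0.02 ± 1.41 could not be told from 0. The oligodendrocyte marker list includes Mbp.

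Gpr34, a receptor of microglia, had the largest positive difference among the called genes named here, 2.46 ± 0.60 (adjusted p = 0.0487). It was at 5.23, 11.2 and 10.7 CPM in WCH, 0.431, 0.383 and 1.27 in TRAP, 31.0, 31.5 and 29.8 in SNF and 17.1, 9.30 and 13.4 in SynapTRAP. The TRAP values rest on 3, 2 and 7 counts, so the size of its loss in the homogenate is loosely bounded, and the band effect of -1.21 ± 0.36 was not called (adjusted p = 0.0523). Olig2, a transcription factor of the oligodendrocyte lineage, had 23.0, 16.2 and 20.4 CPM in WCH and 7.48, 5.17 and 7.45 in TRAP, against 18.9, 23.1 and 15.4 in SNF and 20, 26.1 and 29.7 in SynapTRAP (difference 1.96 ± 0.41, adjusted p = 0.0306). Slc1a2, the main glutamate transporter of astrocytes, fell in TRAP (1486, 938 and 2151 CPM against 4255, 3800 and 4806 in WCH) and overlapped between SNF (34350, 24590 and 27600) and SynapTRAP (27850, 19810 and 16140), but its difference of 1.05 ± 0.45 did not pass (adjusted p = 0.221).

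Qk, an RNA-binding protein of myelinating glia, and Dcx, a microtubule-binding protein of migrating neurons, were named after their values were seen. Qk was at 786, 836 and 794 CPM in WCH, 162, 105 and 254 in TRAP, 1798, 1161 and 1878 in SNF and 1199, 1142 and 2210 in SynapTRAP (difference 2.13 ± 0.43, adjusted p = 0.0269). Dcx was at 146, 177 and 159 CPM in WCH, 30.6, 31.8 and 45.0 in TRAP, 50.5, 57.4 and 81.7 in SNF and 47.5, 50.5 and 90.5 in SynapTRAP (difference 2.14 ± 0.37, adjusted p = 0.0115). In both the pull-down lowered the level in the homogenate in every library and left overlapping groups in the band.

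Genes of RNA-binding proteins linked to local translation formed another group. Of 30 tested, 15 were called lower in TRAP (11.3% of all genes) and 0 higher, 0 were called in the band (4.28% of all genes), and 2, Ago3 and Purb, were called higher for the difference (0.571% of all genes). The median difference was 0.75, positive in 27 of 30. At an unadjusted p under 0.05, 13 were higher and 0 lower, beside 2306 of all 13137 genes in either direction. Ago3, an Argonaute protein that binds small RNAs, had 181, 183 and 171 CPM in WCH, 37.8, 37.2 and 50.8 in TRAP, 90.0, 69.2 and 114 in SNF and 84.7, 72.1 and 142 in SynapTRAP. The homogenate groups stood far apart, the band groups overlapped, and the difference was 2.21 ± 0.36 (adjusted p = 0.0115). Purb, a single-stranded nucleic acid binding protein found in neuronal RNA granules, was lowered from 1032, 1187 and 1278 CPM in WCH to 374, 280 and 435 in TRAP, while SNF (1110, 747 and 1376) and SynapTRAP (1200, 781 and 2507) overlapped. Its difference was 2.16 ± 0.47 (adjusted p = 0.0326), and SynapTRAP library 3 was the highest of all 12. Splicing factor genes held 0 calls of 42 (6 higher and 1 lower at an unadjusted p under 0.05, 0 and 1 by DESeq2), with a positive difference in 36 and a median of 0.47.

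A set of 4 genes called higher for the difference was also called higher in SynapTRAP, with no call in the homogenate. Iqgap1, a scaffold protein of the actin cytoskeleton, was at 16.8, 20.2 and 15.7 CPM in WCH, 12.2, 10.9 and 16.7 in TRAP, 9.12, 2.81 and 9.25 in SNF and 19.5, 23.6 and 32.5 in SynapTRAP. Its band effect was 1.82 ± 0.37 (adjusted p = 0.0105), its homogenate effect -0.41 ± 0.32, and the difference 2.23 ± 0.49 (adjusted p = 0.0334). The SNF values rest on 15, 5 and 18 counts.

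Kank1, a regulator of actin at adhesions, had 28, 27.4 and 19.4 CPM in WCH, 21.9, 8.43 and 13.6 in TRAP, 27.4, 21.9 and 20.6 in SNF and 64.6, 44.2 and 76.5 in SynapTRAP (band effect 1.41 ± 0.32, adjusted p = 0.0169; difference 2.16 ± 0.44, adjusted p = 0.0269). The other 2, chosen after their values were seen, were Parvb, a parvin of integrin adhesions, and Amotl1, a junction-associated angiomotin. Parvb had a band effect of 1.46 ± 0.31 and a difference of 1.80 ± 0.42 (adjusted p = 0.0113 and 0.0412), and Amotl1 had 1.03 ± 0.23 and 1.36 ± 0.32 (adjusted p = 0.0152 and 0.043). In each of the 4 genes every SynapTRAP library was above every SNF library. They were picked by their band call in these same libraries, so this is no added support. The homogenate effect was negative in each and added to the difference, at -0.41 for Iqgap1, -0.76 for Kank1, -0.34 for Parvb and -0.32 for Amotl1. For Amotl1 every TRAP library was below every WCH library. The call for the difference stood without 4 of the 12 libraries only for Iqgap1, 3 for Kank1 and 2 for Parvb and Amotl1. The list of 50 cytoskeleton genes, which holds none of them, had 0 calls for the difference by edgeR or DESeq2, 5 higher and 0 lower at an unadjusted p under 0.05, and a median of -0.12.

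Further genes were called higher, all but Pou3f3 outside the lists. Snap23, a SNARE protein related to Snap25 with roles outside the presynaptic terminal, was at 28.6, 44.8 and 29.1 CPM in WCH, 6.9, 6.13 and 5.81 in TRAP, 34.7, 17.4 and 31.9 in SNF and 23.7, 14.6 and 39.0 in SynapTRAP (difference 2.3 ± 0.48, adjusted p = 0.029). The RNA phosphatase gene Dusp11 was at 94.0, 121 and 102 CPM in WCH, 11.9, 29.9 and 21.8 in TRAP, 29.8, 19.7 and 34.9 in SNF and 25.9, 29.0 and 34.0 in SynapTRAP (difference 2.39 ± 0.41, adjusted p = 0.0115). Efhd1, a calcium-binding mitochondrial protein, differed by 2.45 ± 0.47 (adjusted p = 0.0196), Litaf, a protein of late endosomes, by 2.21 ± 0.48 (adjusted p = 0.0326), and Fam107b by 2.33 ± 0.57 (adjusted p = 0.0496). In these 5 the homogenate groups did not overlap and the band groups did, in the same libraries that gave the calls. Utp14b, which lies within Acsl3 on the same strand so that reads of the 2 may not be separable, differed by 2.17 ± 0.51 (adjusted p = 0.0423), and the neuronal transcription factor gene Pou3f3 by 1.68 ± 0.40 (adjusted p = 0.0469). For Fam107b, Utp14b and Pou3f3 the call stood without 1 of the 12 libraries only.

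The synaptic lists held few calls for the difference. Over all 13137 genes, 2306 were at an unadjusted p under 0.05 in either direction, and DESeq2 called 176 higher and 399 lower. Dendritically localized mRNAs had nearly equal medians in both pull-downs, 0.57 in the homogenate and 0.62 in the band, with 15 of 33 called higher in TRAP (11.4% of all genes), 11 of 33 called higher in SynapTRAP (2.4% of all genes), and 0 called for the difference by edgeR (2 higher and 1 lower at an unadjusted p under 0.05, and 1 lower by DESeq2). Presynaptic genes held 0 calls of 53, with 2 higher and 6 lower unadjusted and 1 higher and 4 lower by DESeq2, and their medians were 0.42 and 0.25. Synaptic adhesion genes, whose products hold the 2 sides of a synapse together, leaned lower without a call by edgeR. Their difference was negative in 33 of 36 with a median of -0.56, 10 were lower unadjusted and DESeq2 called 5 lower. Cytosolic ribosomal protein genes, whose reads are shared with many pseudogenes and which are uncertain for that reason, held 0 calls of 64, with 0 higher and 16 lower unadjusted and 4 lower by DESeq2. Their median difference was -0.51. Spectrin and ankyrin genes, scaffolds of the axonal membrane, had medians of 2.16 in the homogenate and 1.15 in the band, and 0 calls of 12 for the difference by edgeR or DESeq2, with 2 higher at an unadjusted p under 0.05. Their median difference of -0.80 moved to 0.24 without the TRAP and SynapTRAP libraries numbered 3. Endothelial markers, with a median of -0.89, ranged from -1.50 to 0.52 over the fits that left out 1 library. Among all 44 lists, 35 held no call by edgeR.

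**Figure D4:**
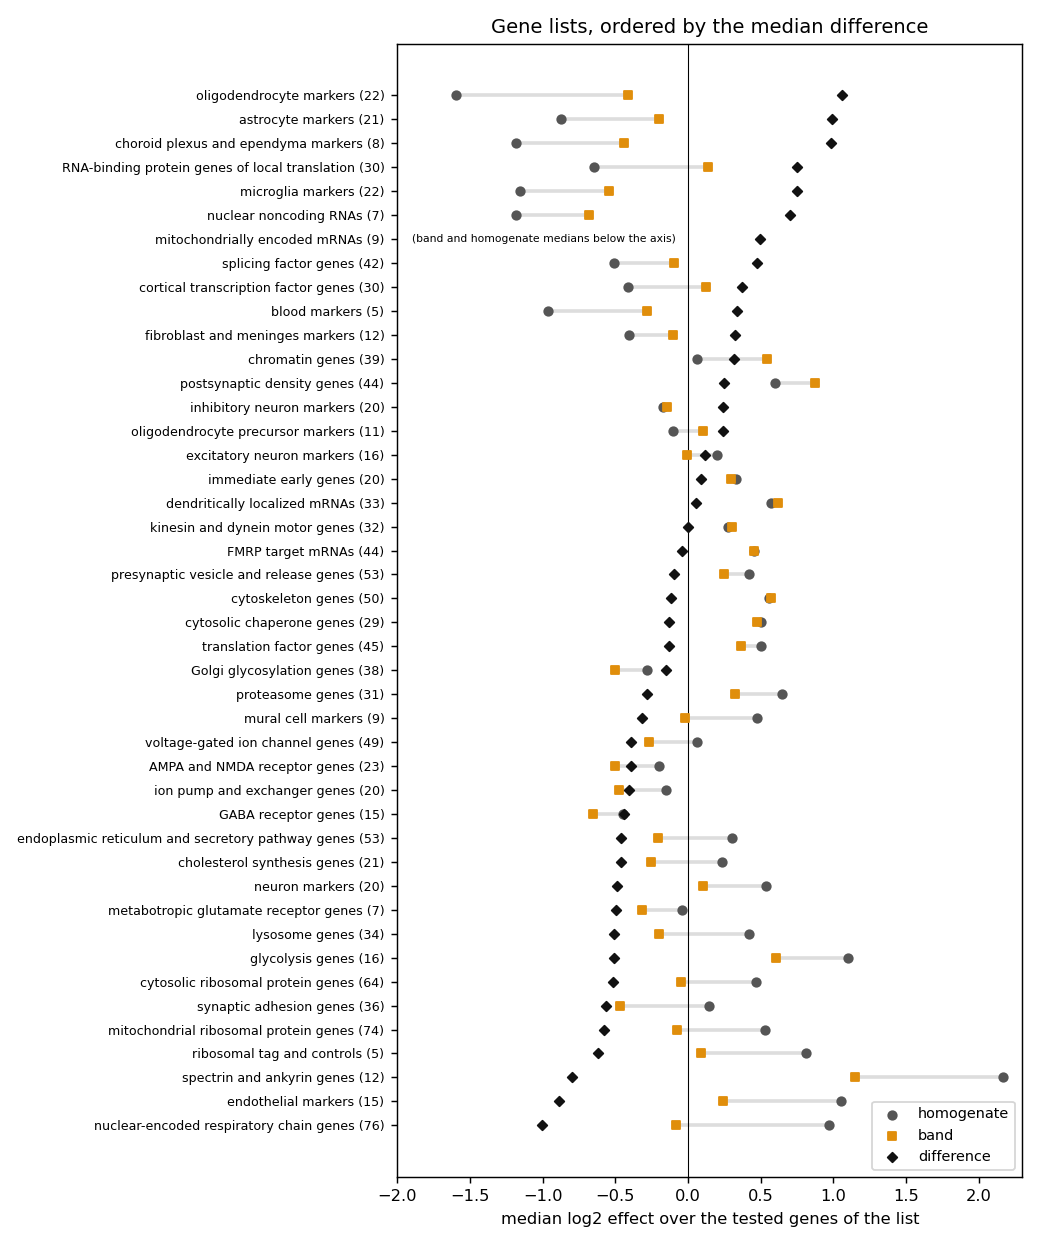
Median log2 effect (x axis) over the tested genes of each list, with the number of genes in parentheses. Grey circles are the homogenate effect, orange squares the band effect and black diamonds the difference, and the lists are ordered by the difference. The mitochondrially encoded mRNAs, at -3.63 and -3.26, lie beyond the axis. Oligodendrocyte (1.06) and astrocyte (0.99) markers top the order and respiratory chain genes (-1.0) close it.

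The authors deposited 2 tables of candidate genes, named local and somatic, that were selected on these same libraries and are no independent evidence. Of 109 local genes tested, 1 was called higher for the difference (Amotl1) and 0 lower, with a median difference of 0.27. In the pull-downs, 64 of them were called higher in SynapTRAP and 62 in TRAP, against 2.4% and 11.4% of all genes. Of 275 somatic genes, 1 was called lower (Bex3, -1.39 ± 0.31, adjusted p = 0.0334) and 0 higher, with a median of -0.31, and 16 were called higher in SynapTRAP and 117 in TRAP. Both tables had positive medians in both pull-downs, 1.10 in the band and 0.94 in the homogenate for local genes and 0.36 and 0.67 for somatic genes.

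Length and base composition of the transcripts moved with the difference across the whole transcriptome. Over 12699 protein-coding genes with a transcript model in GENCODE M21, the Spearman correlation of the difference was 0.294 with transcript length and -0.3 with GC content. The genes share the 12 libraries, so these are descriptions. Genes called lower had a median transcript of 931 bases and 56.1% GC, those called higher 5073 bases and 45.3% GC, and all tested genes 3180 bases and 50.4% GC. The shortest decile of transcripts (311 to 1344 bases) held 34 of the 51 genes called lower and 1 called higher, with a median difference of -0.54. The longest decile held 20 called higher and 1 called lower, with a median of 0.36. For GC content, the lowest decile held 21 called higher and 1 lower (median 0.46) and the highest decile 1 higher and 16 lower (median -0.25).

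The trends with transcript length and GC content were steeper in the homogenate than in the band. From the shortest to the longest decile, the median homogenate effect went from 0.48 to -0.26 and the median band effect from -0.11 to 0.11. From the lowest to the highest GC decile, the homogenate effect went from -0.69 to 0.67 and the band effect from -0.23 to 0.32. Coding length behaved otherwise: its Spearman correlation was 0.254 with the band effect, -0.0443 with the homogenate effect and 0.221 with the difference. For the length of the 3' untranslated region these were -0.123, -0.336 and 0.226. In the band these 2 parts of the transcript ran in opposite directions, and whole transcript length gave 0.0679. The median 3' untranslated region was 239 bases in genes called lower, 2644 in those called higher and 1103 in all tested genes. Of the single libraries, TRAP stood apart by length, with Spearman correlations of -0.358 to -0.267 between transcript length and the library's deviation from the mean of all libraries, against -0.00414 to 0.268 in the other 9. By GC content WCH was lowest, with Spearman correlations of -0.522 to -0.341, close to SNF library 3 at -0.316. The remaining libraries were at -0.0366 to 0.45. Respiratory chain, cytosolic ribosomal and mitochondrial ribosomal protein genes made up 144 of the 1269 genes in the shortest decile. With them the decile held 34 genes called lower and a median difference of -0.54. Without them it held 18 called lower among 1125 and a median of -0.49. The lists of ribosomal protein genes held no call for the difference, so the calls lost were of respiratory chain genes.

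A fit that removed each library's trend over GC content and length called 1 gene for the difference, Dcx (2.26, adjusted p = 0.0434), and 0 lower by edgeR, with 1916 genes at an unadjusted p under 0.05. All 126 genes kept their sign in it. The median difference of respiratory chain genes went from -1.0 to -0.54 with 0 calls, and that of RNA-binding proteins of local translation from 0.75 to 0.47. The medians of oligodendrocyte markers (1.06 to 1.15), astrocyte markers (0.99 to 0.88) and microglia markers (0.75 to 0.78) stayed of like size, with 0 calls. Whether length, base composition or the function of these genes set the differences was not tested.

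**Figure D5:**
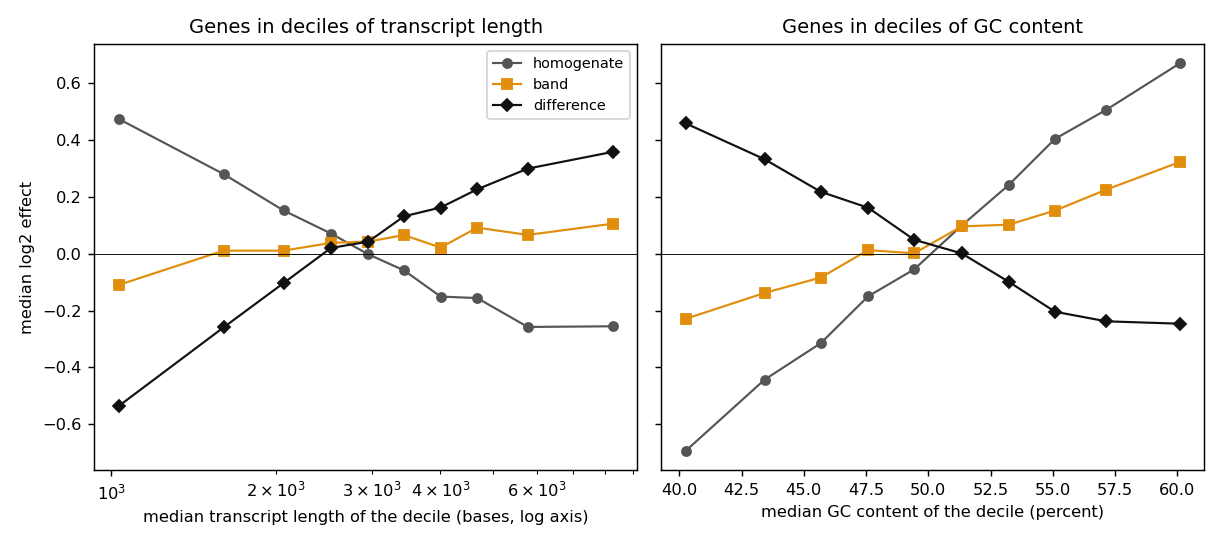
Median log2 effect (y axis) over deciles of protein-coding genes ordered by transcript length (left, log axis, bases) and by GC content (right, percent). Grey circles are the homogenate effect, orange squares the band effect and black diamonds the difference. The difference runs from -0.54 to 0.36 with length and from 0.46 to -0.25 with GC content, and the homogenate effect runs the opposite way over a wider range than the band effect.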

How the data were processed

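The authors deposited integer read counts per gene for each library, followed by 5 summary lines. Bowtie2, STAR, HTSeq and edgeR were used, per the submitters' processing notes. The sources used here give no genome build, annotation or strand setting, so reads of overlapping genes may not be separable. The authors' deposited tables of candidates give log2 fold changes, scores and p-values; only their gene names were used. The summary lines were dropped. One edgeR 4.0.16 model (R 4.3.3) held the counts of all 12 libraries, with a mean per group, the default filter and TMM factors, leaving 37 mitochondrially encoded rows out of library size and factors. Contrasts used edgeR's quasi-likelihood test in its robust form. Calls had a Benjamini-Hochberg adjusted p under 0.05 over all 13137 genes. CPM used the same scaling, and log2 CPM a prior count of 2. The method was run on simulated data with a single fixed dispersion and independent libraries, a setting without the pairing and unequal spread of these data. Alternatives used limma 3.58.1 and DESeq2 1.42.0. Symbols and transcript models came from GENCODE M21 (GRCm38). Named genes were the 12 called genes with the largest differences in each direction (mean of at least 10 CPM, a plain symbol, a stable sign without any 1 library), up to 3 called per list and direction, and fixed controls. The quantity, the 44 lists and the rule were chosen with earlier results of these data known. Same-numbered SNF and SynapTRAP libraries deviated together (correlations across genes 0.322 to 0.487) and were treated as pairs in a fit of those groups. Alternatives with a block for the replicate number are also given. Same-numbered WCH and TRAP libraries did not deviate together (-0.0403 to 0.0981).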

Additional observations from a re-analysis of the deposited data

Results flagged for a closer look

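The effect of the pull-down differed between the preparations, by the test of the difference itself (edgeR, adjusted p under 0.05 over all genes), in 75 genes higher and 51 lower in the band. Of the genes named in the text, the log2 difference was positive in Gpr34 (2.46), Efhd1 (2.45), Ermn (2.40), Dusp11 (2.39), Fam107b (2.33), Snap23 (2.3), Iqgap1 (2.23), Litaf (2.21), Ago3 (2.21), Utp14b (2.17), Kank1 (2.16), Purb (2.16), Dcx (2.14), Qk (2.13), Olig2 (1.96), Parvb (1.80), Pou3f3 (1.68), Tspan2 (1.67), Elovl7 (1.63) and Amotl1 (1.35). It was negative in Romo1 (-2.10), Nop10 (-2.08), Yipf3 (-2.08), Ndufa13 (-2.05), Ttc9b (-2.02), Fbll1 (-2.02), Uqcr11 (-1.98), Mettl22 (-1.95), Ndufa2 (-1.87), Uqcr10 (-1.84), Cox8a (-1.82), Kalrn (-1.80), Cox7a2 (-1.75), Dctn3 (-1.50), Bex3 (-1.39) and Gsg1l (-1.35). None of these calls held without every library in turn, as given above. The cause of the differences was not tested. Groups of 3 libraries are too small for a check of single libraries against the rest of their group.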

How the results depend on the processing

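When 1 library was left out, genes called for the difference ranged from 0 to 163 higher and from 0 to 271 lower, respiratory chain genes called lower from 0 to 31, and genes called in opposite directions from 0 to 3. The band effect ranged from 0 to 300 higher and 1 to 607 lower, and the homogenate effect from 720 to 1795 and from 711 to 1792. Without the TRAP and SynapTRAP libraries numbered 3, an alternative chosen after seeing the data, 87 genes were called lower, the band effect gave 432 higher and 412 lower and 7 were opposite; 85 of the 126 called genes remained called.

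With RLE factors, 38 genes were called higher, the band effect gave 190 higher and 372 lower, and 1 gene was opposite. Totals outside the mitochondrial genome gave 974 genes higher in the homogenate and 1 opposite. Totals with mitochondrial rows gave 6324 higher and 1 lower for the difference, 12026 and 7 in the band, 2882 and 236 in the homogenate, 171 opposite and 0 respiratory chain genes lower, and turned the sign of Gsg1l (0.0144) and Bex3 (0.00508). Without a filter, 196 genes were higher and 268 lower, 390 lower in the band, 2 opposite and 34 respiratory chain genes lower. DESeq2 gave 176 and 399, 633 lower in the band, 5 opposite and 37 respiratory chain genes; limma-voom gave 40 higher. Fitted alone, SNF and SynapTRAP gave 184 higher and 112 lower.

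A replicate block over all libraries gave 222 higher and 150 lower for the difference, 397 lower in the band, 1 opposite and 28 respiratory chain genes lower. A block within each preparation gave 495 and 438, 644 and 638 in the band, 16 opposite and 38 respiratory chain genes. A block in SNF and SynapTRAP alone gave 1086 and 1124. All 126 genes remained called with the first 2 blocks, but WCH and TRAP libraries share only a number: 3 of 6 correlated best with their own number, against 6 of 6 in the band. Across preparations it was 6 of 6 for TRAP with SynapTRAP, 5 of 6 for WCH with SNF, 3 of 6 for TRAP with SNF and 2 of 6 for WCH with SynapTRAP. The correction for GC content and length, chosen after seeing the data, gave 1 higher and 0 lower, 49 and 123 in the band, 605 and 575 in the homogenate and 0 respiratory chain genes. The other counts given here stayed within 1.5 times. Among the lists, totals outside the mitochondrial genome called 4 oligodendrocyte, 3 precursor and 2 microglia markers and 2 cortical transcription factor genes higher. RLE factors called 1, 1, 0 and 0, and 3 mitochondrial ribosomal protein genes lower. The cause of these changes was not tested. SNF depth limits genes of few counts.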
